A study of Homo sapiens with 4 samples.

Results

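Of the 9552 c-MYC peaks called in DMSO-treated MIA PaCa-2 cells, 329 (3.44%, 95% Wilson interval 3.10 to 3.83) lay at promoters of long non-coding RNA (lncRNA) genes only. A peak was counted here when its summit lay within 1 kb of a transcription start site (TSS) belonging to a GENCODE lncRNA gene and more than 1 kb from the TSS of every protein-coding transcript. Within the DMSO list the rule used positions alone, and no measured strength or drug response. A place on that list required a call in DMSO, which favours high DMSO values. A further 1094 DMSO peaks lay within 1 kb of a lncRNA TSS but also of a protein-coding TSS, so that the 329 peaks are the part of 1423 that a shared promoter with a protein-coding gene does not touch. They were compared with the 4621 DMSO peaks at protein-coding promoters and with the 4602 at neither kind of promoter.

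MIA PaCa-2 is a human pancreatic ductal adenocarcinoma cell line. Cells had received AMG510 (an inhibitor, 100 nM), trametinib (an inhibitor of the kinase MEK, 10 nM) or only the solvent DMSO for 8 h, and chromatin was immunoprecipitated with a c-MYC antibody and sequenced (ChIP-seq). The 4 libraries were 1 c-MYC library for each treatment and 1 library with non-specific immunoglobulin (IgG) from DMSO-treated cells. No group had a second library, so differences between libraries carry no replicate check and no test, and a drug cannot be told apart from the library that carries it. Intervals cover counting error only. Between 22700000 and 24800000 tags (aligned reads) per library entered peak calling, and where the background equalled the genome-wide one, pileups of 7 or 8 tags sufficed. A member without a call under a drug may therefore still hold signal below that limit. Pileups were built with tags extended to 177 bp in DMSO, 157 bp in AMG510 and 163 bp in trametinib. At these extensions and depths an unchanged, evenly spread signal would give log2 tag ratios of −0.16 for AMG510 and −0.07 for trametinib against DMSO. Raw tags of such a signal would be lower under the drugs by that much. Tags given as scaled were corrected on this assumption, a setting added after the data were seen. Whether the assumption holds at narrow peaks was not tested.

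c-MYC is a transcription factor that binds DNA as a dimer with MAX, preferentially at the E-box CACGTG and mostly at active promoters rich in CpG. Among lncRNA genes, its known targets include host genes of small nucleolar RNAs, which guide the modification of ribosomal RNA, and the host gene of the miR-17-92 microRNA cluster. Host genes carry the small RNAs in their introns, and the spliced host transcript itself often has no known protein product.

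To show what the bound sites look like, 56 bases around the E-box nearest to the summit are printed for the 8 strongest members that carry an E-box within 100 bp of the summit. All are on GRCh38, 5′ to 3′ on the strand of the lncRNA gene, with E-boxes in capitals. The windows are chr7:4642088-4642143 (plus strand) for ENSG00000286874, chr7:44986524-44986579 (minus) for SNHG15, chr7:22854293-22854348 (plus) for SNHG26, chr11:71787703-71787758 (plus) for ENSG00000291186, chr9:136728276-136728331 (minus) for SNHG7, chr4:3955198-3955253 (minus) for FAM86EP, chr7:1742052-1742107 (minus) for ELFN1-AS1 and chr7:101308645-101308700 (plus) for EMSLR.
ENSG00000286874: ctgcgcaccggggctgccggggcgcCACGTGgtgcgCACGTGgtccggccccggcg
SNHG15: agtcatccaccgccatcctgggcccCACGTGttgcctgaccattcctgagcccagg
SNHG26: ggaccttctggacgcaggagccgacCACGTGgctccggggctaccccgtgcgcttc
ENSG00000291186: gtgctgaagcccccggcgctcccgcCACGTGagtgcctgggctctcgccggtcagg
SNHG7: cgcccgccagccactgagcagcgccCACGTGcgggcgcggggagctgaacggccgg
FAM86EP: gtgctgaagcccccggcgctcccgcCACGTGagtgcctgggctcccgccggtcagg
ELFN1-AS1: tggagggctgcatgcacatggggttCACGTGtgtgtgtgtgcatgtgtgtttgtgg
EMSLR: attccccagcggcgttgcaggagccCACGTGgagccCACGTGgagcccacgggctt

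The sites differed in their surroundings. ENSG00000286874 and EMSLR each carried a pair of E-boxes in the window. The windows of ENSG00000291186 and FAM86EP, on different chromosomes, differed at 1 of 56 positions, and both lie at copies of the FAM86 pseudogene family described below. The ELFN1-AS1 site is followed by TG repeats, whereas the others lie in sequence rich in G and C. The E-box was downstream of the TSS at SNHG15 (8 bp), SNHG26 (48 bp), ENSG00000291186 (200 bp), FAM86EP (138 bp), ELFN1-AS1 (192 bp) and EMSLR (376 bp), and upstream at ENSG00000286874 (132 bp) and SNHG7 (120 bp).

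For contrast, 151 bases centred on the summit are printed for the members ranked next after the strongest, ENSG00000286874 with 2 E-boxes and MIRLET7A1HG with none. The windows are chr7:4642018-4642168 for ENSG00000286874 and chr9:94166466-94166616 for MIRLET7A1HG, the host gene of let-7 microRNAs, both on the plus strand of GRCh38, with E-boxes again in capitals.
ENSG00000286874: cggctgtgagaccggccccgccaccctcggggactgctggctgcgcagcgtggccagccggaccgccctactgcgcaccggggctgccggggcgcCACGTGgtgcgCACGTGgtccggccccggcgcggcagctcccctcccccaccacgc
MIRLET7A1HG: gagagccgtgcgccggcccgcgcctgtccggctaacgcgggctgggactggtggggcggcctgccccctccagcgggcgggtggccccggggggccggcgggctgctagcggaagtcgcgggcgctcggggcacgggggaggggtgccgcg

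The 329 peaks had 309 different lncRNA genes nearest to them, of 18866 lncRNA genes in the annotation. For 18 genes there was more than 1 peak, 38 peaks in all, with 3 at MIR17HG. Lone identifiers made up the larger part: 171 peaks (52.0%) lay at genes with no symbol. A further 57 lay at genes with a LINC name (long intergenic non-coding RNA), 36 at genes named as antisense to another gene (-AS), 15 at small nucleolar RNA hosts, 10 at microRNA hosts, 2 at divergent transcripts (-DT) and 38 at genes with other symbols. Most peaks were far from protein-coding promoters. The median distance to the nearest protein-coding TSS was 31790 bp (range 1036 to 1762000), with 47 peaks between 1 and 5 kb, 28 up to 10 kb, 134 up to 50 kb and 120 farther away. No protein-coding gene covered 266 of the summits, and 48 lay inside a protein-coding gene on the strand opposite to it.

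Summits clustered at the TSS. Of the 329 peaks, 102 (31%, 26.2 to 36.2) had the summit within 100 bp of the nearest lncRNA TSS, close to the 31.7% of peaks at protein-coding promoters that were within 100 bp of theirs. The tails were heavier, with 20.1% (16.1 to 24.7) over 500 bp away, against 11.6% (10.7 to 12.5) for protein-coding promoters. The median distance was 199 bp against 168 bp. The summit was downstream of the TSS in 57.4% (52.0 to 62.7) of peaks, against 66.8% (65.4 to 68.1) at protein-coding promoters.

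**Figure D1:**
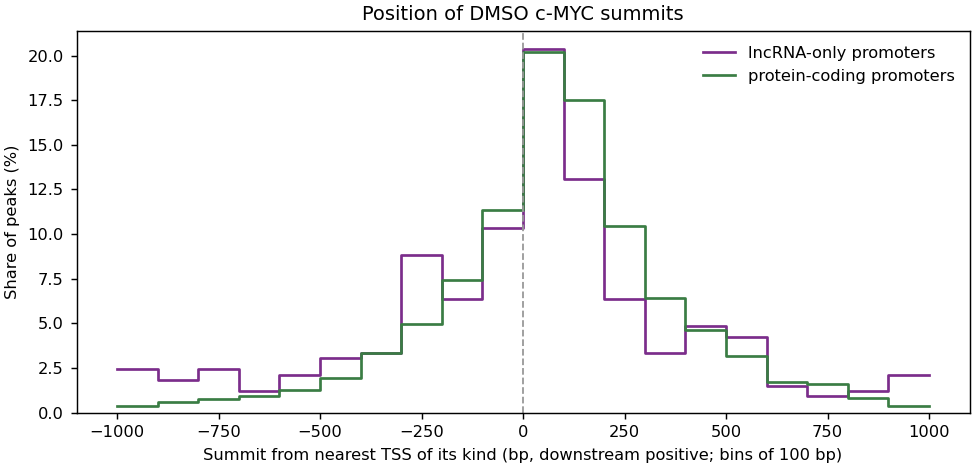
Position of the summit of DMSO c-MYC peaks relative to the nearest TSS of the kind that defined the group, in bins of 100 bp (x axis, bp, downstream positive), as a share of the peaks of the group (y axis, %). Both the 329 peaks at lncRNA-only promoters and the 4621 at protein-coding promoters peak just downstream of the TSS, and the lncRNA line lies above the protein-coding line in the outermost bins.

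In base composition and strength the peaks stood between both comparison groups but nearer to protein-coding promoters. The median GC content of the 301 bp around the summit was 65.1%, against 71.8% at protein-coding promoters and 46.2% at neither promoter. The median ratio of observed to expected CpG was 0.760, against 0.861 and 0.218. The median fold enrichment, the pileup at the summit over the local background, was 4.64 (quartiles 4.12 to 5.56, range 3.07 to 31.27), against 4.90 and 4.36, and the median pileup was 15 tags (quartiles 12 to 19, range 8 to 157), against 16 and 12. A fold enrichment above 5 was reached by 136 peaks (41.3%, 36.1 to 46.7), against 46.3% at protein-coding promoters, a difference of −4.93 percentage points whose 95% Newcombe interval of −10.3 to 0.65 includes 0. The strongest peak of the whole DMSO list was among the 329, as were 8 of the strongest 100.

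A canonical E-box lay within 100 bp of the summit in 69 of the 329 peaks (21.0%, 16.9 to 25.7). CACGTG is its own reverse complement, so both strands are covered by 1 search. The same search found it in 11.3% of all DMSO peaks, 16.9% of those at protein-coding promoters and 4.93% of those at neither promoter. In windows of the same size placed 1 kb to the left or to the right of the 329 summits it was found in 4.26% each. The excess over protein-coding promoters was 4.05 points (−0.15 to 8.89), and it was 5.15 points (0.63 to 9.66) when the groups were weighted to the same deciles of fold enrichment, a setting added after the data were seen. The interval also excluded 0 with windows of 500 bp around the TSS (6.12 points, 1.90 to 10.9), but not with 2 kb (1.58 points, −2.19 to 5.96). The variant CACGCG, searched on both strands, was found in 68 peaks (20.7%, 16.6 to 25.4), against 23.3% at protein-coding promoters, and either motif in 123 (37.4%, 32.3 to 42.7), against 36.9%. The E-box share was 38.3% (25.8 to 52.6, 18 of 47) in peaks between 1 and 5 kb from a protein-coding TSS. It was 17.9% (7.88 to 35.6, 5 of 28) between 5 and 10 kb and 17.2% (11.7 to 24.4, 23 of 134) between 10 and 50 kb. Beyond 50 kb it was 19.2% (13.1 to 27.1, 23 of 120), so the share did not fall steadily with distance.

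How many of the sites were called again after drug treatment was asked first. A peak of the AMG510 list overlapped 96 of the 329 by at least 1 bp (29.2%, 24.5 to 34.3), where 20.5% of all DMSO peaks were overlapped. Trametinib peaks overlapped 75 (22.8%, 18.6 to 27.6), against 17.1% of all DMSO peaks. Both drug lists had a peak at 45 (13.7%, 10.4 to 17.8), against 10.9%, and neither had one at 203 (61.7%, 56.3 to 66.8), against 73.3%. IgG peaks overlapped 4 (1.22%, 0.47 to 3.08), against 2.0%. Thus most sites had a call in the DMSO c-MYC list only, while those called under the drugs were far more numerous than those called with IgG. Sites called under 1 drug numbered 51 for AMG510 and 30 for trametinib, and AMG510 held 63.0% (52.1 to 72.7) of them, against 60.2% (57.4 to 62.9) at protein-coding promoters. The AMG510 list is the longer one, with 10378 peaks against 5431 for trametinib.

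**Figure D2:**
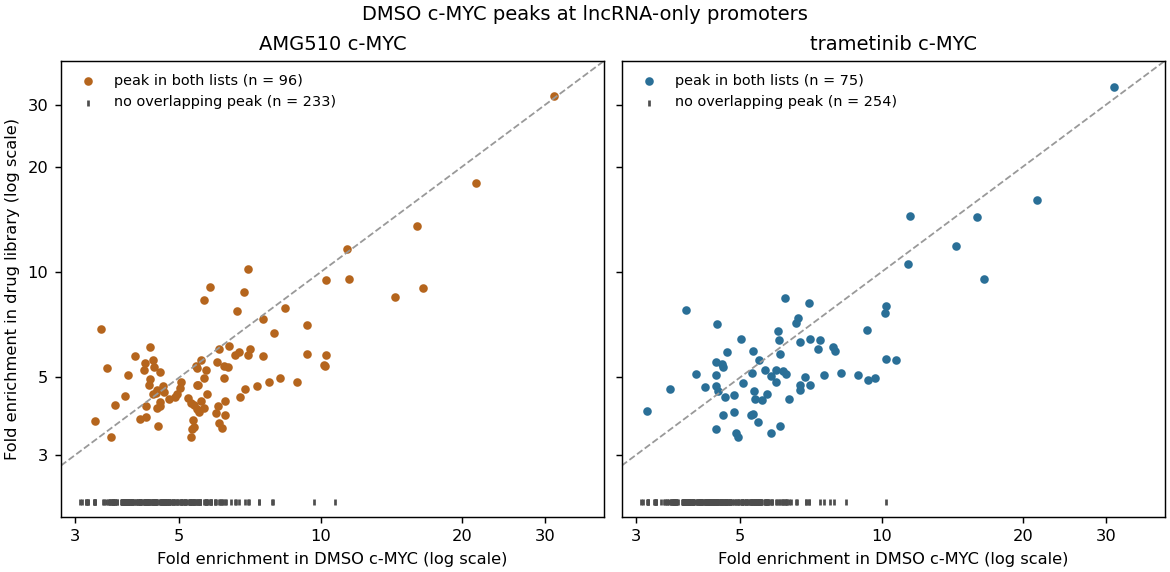
Fold enrichment of the 329 DMSO c-MYC peaks (x axis, log scale) against that of the overlapping AMG510 peak (left) or trametinib peak (right) (y axis, log scale), with the line of equality dashed and peaks without an overlap drawn as ticks along the bottom. The 96 AMG510 and 75 trametinib points lie mostly below the line, and ticks are dense where the DMSO fold enrichment is low.

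Set against the other promoters, the shares were slightly lower, and whether the intervals excluded 0 depended on the setting. For AMG510 the difference from protein-coding promoters (33.2%) was −3.97 points (−8.82 to 1.33) and for trametinib (27.7%) −4.95 points (−9.35 to 0.0499). With windows of 2 kb they were −6.19 points (−10.6 to −1.32) and −6.47 points (−10.5 to −1.90), and with a score above 60 in every list 2.99 points (−4.37 to 12.04) and 5.30 points (−2.42 to 14.5). Peaks at neither promoter were called again far less often, with 7.26% for AMG510 and 6.06% for trametinib. This left the lncRNA-only promoters 21.9 points (17.2 to 27.1) and 16.7 points (12.5 to 21.6) higher, without matching for strength. In the middle 4 deciles of DMSO fold enrichment the shares were 4.0% and 3.27%, against 21.6% and 16.2% at lncRNA-only promoters. In the strongest decile, peaks at neither promoter had 73.3% and 68.5%, against 71.4% at lncRNA-only promoters for each drug, so no such gap was seen there. When protein-coding promoter peaks were weighted to the same deciles of DMSO fold enrichment, the differences from them were −1.66 points (−6.73 to 3.41) for AMG510 and −2.84 points (−7.52 to 1.84) for trametinib.

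Strength in DMSO went along with being called again. In the strongest decile of DMSO peaks (fold enrichment 6.49 to 31.27), 30 of 42 lncRNA-only promoter peaks (71.4%, 56.4 to 82.8) had an AMG510 peak and the same number a trametinib peak. Protein-coding promoters in this decile had 70.6% and 65.8%, respectively. All DMSO peaks of the decile had 71.1% and 66.5%, and peaks at neither promoter 73.3% and 68.5%, so the groups were alike there. In the weakest 3 deciles, 9 of 91 (9.89%, 5.29 to 17.7) had an AMG510 peak and 4 of 91 (4.396%, 1.72 to 10.8) a trametinib peak, against 15.2% (13.2 to 17.5) and 11.6% (9.79 to 13.7) at protein-coding promoters. In these weakest deciles the E-box share of lncRNA-only promoters was 15.4% (9.39 to 24.2), against 8.52% (6.98 to 10.4) at protein-coding promoters. It was 5.72% over all DMSO peaks of these deciles.

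**Figure D3:**
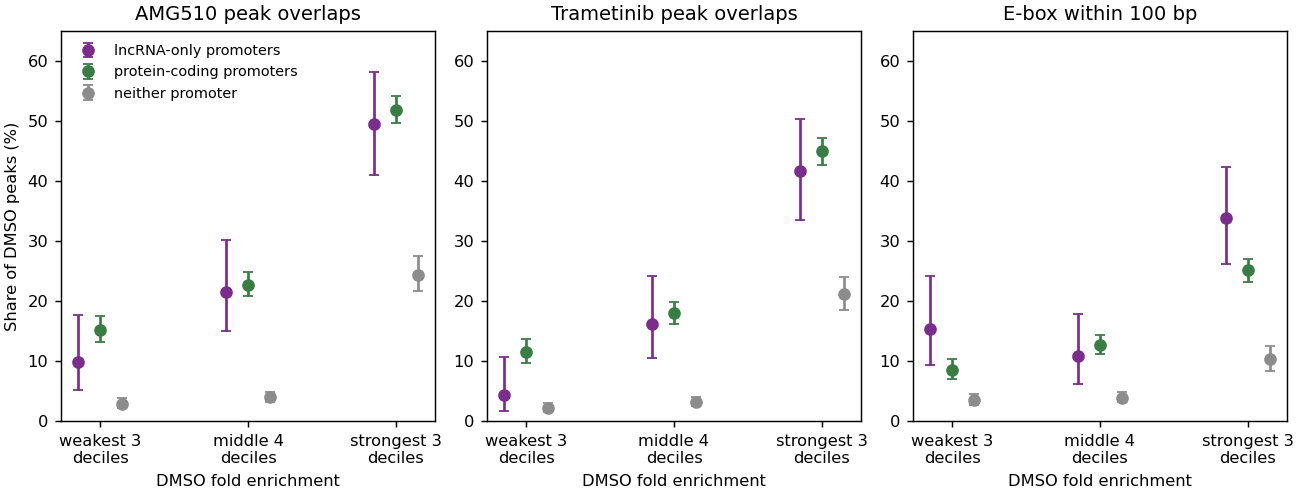
Share of DMSO c-MYC peaks (y axis, %) overlapped by an AMG510 peak (left) or a trametinib peak (middle) or holding an E-box within 100 bp of the summit (right), in 3 bands of DMSO fold enrichment, for peaks at lncRNA-only promoters, protein-coding promoters and neither promoter. Points are shares and bars 95% Wilson intervals. Shares called rise with strength in each group, and those of lncRNA-only promoters lie near the protein-coding ones and above the peaks at neither promoter in the middle and strongest bands.

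Members with an E-box were called more often under both drugs. AMG510 peaks overlapped 28 of 69 members with an E-box (40.6%) and 68 of 260 without (26.2%), a difference of 14.4 points (2.24 to 27.2). Trametinib peaks overlapped 23 (33.3%) and 52 (20.0%), a difference of 13.3 points (2.04 to 25.9). Members with an E-box were also stronger in DMSO, with a median fold enrichment of 5.38 against 4.56. Protein-coding promoters differed in the same direction, by 14.9 points for AMG510 and 17.9 points for trametinib. Protein-coding promoter peaks weighted to the deciles of the members with an E-box had shares of 39.2% for AMG510 and 33.5% for trametinib, and weighted to those of the members without one 28.6% and 23.6%.

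The strongest member is not specific to the c-MYC antibody. At FAM230C (chr13:18211900-18212227, inside an intron, 109 bp downstream of the TSS) the c-MYC libraries held 157 tags (DMSO), 153 (AMG510) and 164 (trametinib) and the IgG library 142, with counting intervals that overlap in all 4 libraries. Its 301 bp recur at 25 other places of at least 95% identity in the genome. It has no E-box and a GC content of 34.9%. No other of the 10 strongest members had an IgG peak.

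The second strongest, at ENSG00000286874 (chr7:4641910-4642349, 155 bp upstream of its TSS, with the nearest protein-coding TSS, that of FOXK1, 40202 bp away), had 130 tags in DMSO (109 to 154), 78 in AMG510 (61.7 to 97.3) and 75 in trametinib (59.0 to 94.0), without an IgG peak. Both drug intervals lay below that of DMSO, also with tags scaled for extension and depth. Its fold enrichment was 21.4 in DMSO, against 17.9 (AMG510) and 16.1 (trametinib). At MIRLET7A1HG (chr9:94166368-94166720) there were 75 tags in DMSO (59.0 to 94.0), 36 in AMG510 (25.2 to 49.8) and 35 in trametinib (24.4 to 48.7), again apart from DMSO with and without scaling, and the fold enrichment was 16.5, 9.01 and 9.55. LINC03009, whose sequence recurs at 2 other places, had 33 tags in DMSO, 13 in AMG510 and 19 in trametinib. ELFN1-AS1, antisense inside the gene ELFN1, had 54, 19 and 31 tags. In both of these the DMSO value was the highest, and after scaling the AMG510 interval of ELFN1-AS1 was apart from DMSO and that of LINC03009 was not.

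Small nucleolar RNA host genes held 15 of the 329 peaks, at 14 of the 32 genes of the list. AMG510 peaks overlapped 11 of the 15 (73.3%, 48.0 to 89.1), trametinib peaks 9 (interval 35.8% to 80.2%), both 8 and neither 3. Protein-coding promoter peaks weighted to the same deciles of strength had 45.3% and 39.7%, so the AMG510 interval lay above and the trametinib interval around the value for protein-coding promoters. An E-box lay at 6 of the 15 (interval 19.8% to 64.3%), and the interval held the 22.9% of protein-coding promoter peaks at the same deciles. No IgG peak overlapped any of the 15. Of the other genes of the list, 8 had a DMSO peak near a protein-coding TSS (GAS5, SNHG3, SNHG4, SNHG9, SNHG10, SNHG19, SNHG20 and ZFAS1), which put them outside the rule, and 10 had no DMSO peak within 1 kb.

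Among these hosts the peaks strongest in DMSO held fewer tags under both drugs, and the weaker ones did not share a direction. Ranking by the DMSO value itself favours lower values in other libraries at the top, so this pattern cannot be told apart from that of the ranking. SNHG15 (chr7:44986115-44986669, hosting SNORA9, 53 bp downstream of its TSS) had 97 tags in DMSO (78.7 to 118), 59 in AMG510 (44.9 to 76.1) and 69 in trametinib (53.7 to 87.3). SNHG17 (chr20:38434755-38435449) had 88 in DMSO (70.6 to 108), 39 in AMG510 (27.7 to 53.3) and 61 in trametinib (46.7 to 78.4). SNHG7 (chr9:136728034-136728522) had 66 in DMSO (51.0 to 84.0), 43 in AMG510 (31.1 to 57.9) and 26 in trametinib (16.98 to 38.1). For these the AMG510 interval was apart from DMSO at SNHG15 and SNHG17, and the trametinib interval at SNHG7. With tags scaled for extension and depth, those at SNHG17 and SNHG7 were still apart, and the AMG510 interval of SNHG15 (50.01 to 84.75) overlapped that of DMSO.

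SNHG26 had 51 tags in DMSO, against 36 (AMG510) and 43 (trametinib), and SNHG25, host of SNORD104 and SNORA50C, had 32, 21 and 31. At EPB41L4A-AS1, host of SNORA13, the values were 27, 30 and 28, and at the stronger SNHG5 peak 22, 17 and 27. SNHG8 had 15, 13 and 19. Counting intervals of the 3 libraries overlapped at each of these genes. A peak in 1 drug list only was found at SNHG29 (21 tags in DMSO, 15 in AMG510), the weaker SNHG5 peak (19, 16 in AMG510), SNHG11 (11, 19 in AMG510) and DANCR (13, 17 in trametinib, with the drug summit 487 bp away). SNHG12 (22 tags), SNHG16 (20) and SNHG6 (13) had a peak in DMSO only.

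**Figure D4:**
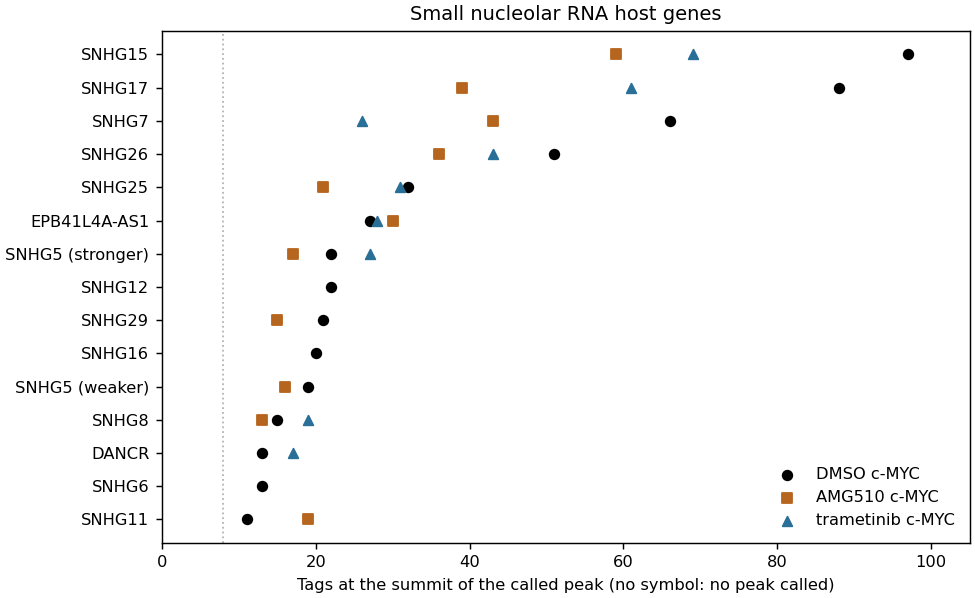
Tags at the summit (x axis) of c-MYC peaks at 15 promoter peaks of small nucleolar RNA host genes (y axis, ordered by DMSO tags) in DMSO (circles), AMG510 (squares) and trametinib (triangles), with a dotted line at 8 tags, the smallest DMSO pileup called at the genome-wide background. No symbol means that no overlapping peak was called. At SNHG15, SNHG17, SNHG7 and SNHG26 both drug symbols lie left of the DMSO circle.

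MicroRNA host genes held 10 peaks, of which both drug lists overlapped the same 5 and neither list the other 5. The interval of this share (23.7% to 76.3%) held the 39.6% (AMG510) and 34.3% (trametinib) of protein-coding promoter peaks at the same deciles. Of the 87 genes of this list, 8 had a member, 4 had a DMSO peak near a protein-coding TSS and 75 had no DMSO peak within 1 kb. MIR17HG, host of the miR-17-92 cluster, had 3 peaks along its promoter region. The strongest, 38 bp from a TSS, had 42 tags in DMSO (30.3 to 56.8), 23 in AMG510 (14.6 to 34.5) and 24 in trametinib (15.4 to 35.7). The next had 33, 21 and 16 tags, and the weakest had 22 tags in DMSO and no call under either drug. The called drug values were thus below DMSO, with counting intervals that overlap.

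PVT1 is a host gene next to MYC itself. Its summit lay 6 bp from a TSS, and the nearest protein-coding TSS, that of MYC, was 56837 bp away. It had 46 tags in DMSO (33.7 to 61.4), 43 in AMG510 (31.1 to 57.9) and 26 in trametinib (16.98 to 38.1). The intervals overlapped. MIR193BHG had 18, 10 and 15. DLEU2 (16 tags), MIR23AHG (30), MIR29B2CHG (14) and MIR205HG (11) had a peak in DMSO only at the site nearest to their own TSS. A second site within 1 kb of a DLEU2 TSS, nearest to ENSG00000274270, had 13 tags in DMSO and 13 in trametinib. None of the 10 microRNA host peaks held an E-box (upper bound of the interval 27.8%), although CACGCG lay near the summit at MIRLET7A1HG, PVT1 and the second MIR17HG peak.

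Of 40 lncRNAs studied in cancer, 36 were found in the annotation under their names, 5 had a member, 4 had a DMSO peak near a protein-coding TSS and 27 had no DMSO peak. CRNDE had 20 tags in DMSO, 17 in AMG510 and 14 in trametinib. NORAD, which binds PUMILIO proteins, had peaks of 14 and 11 tags in DMSO, both overlapped by the same AMG510 peak of 13 tags and by none in trametinib. LINC-PINT, a lncRNA induced by p53, had a peak of 24 tags with no drug call and one of 15 tags with 14 in AMG510. TERC, the RNA component of telomerase, had 16 tags and LUCAT1 16, each in DMSO only. These genes therefore rest on small pileups, and counting intervals of DMSO and drug overlapped wherever both were called.

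Among the classes of gene with more than 2 peaks, the shares called again ran from LINC genes at the low end to the small nucleolar RNA hosts at the high end. Of the 57 peaks at LINC genes, AMG510 peaks overlapped 9 (15.8%, 8.54 to 27.4) and trametinib peaks 5 (8.77%, 3.805 to 18.9). Both intervals lay below the 28.8% and 23.7% of protein-coding promoter peaks at the same deciles. They held the 20.5% and 17.1% of all DMSO peaks, which were not matched for strength. Genes with an identifier only had 25.1% (19.2 to 32.2) and 19.9% (14.6 to 26.5), with decile-weighted protein-coding shares of 29.4% and 24.4%. At antisense genes each drug list overlapped 9 of 36 (interval 13.8% to 41.1%), around the decile-weighted protein-coding shares of 27.9% and 22.4%. At genes with other symbols AMG510 peaks overlapped 19 of 38 (interval 34.8% to 65.2%) and trametinib peaks 12 (19.1% to 47.5%), and both intervals held the decile-weighted protein-coding shares of 35.5% and 29.8%. Classes were read from gene names and their sizes are unequal, so the values describe these peaks only.

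**Figure D5:**
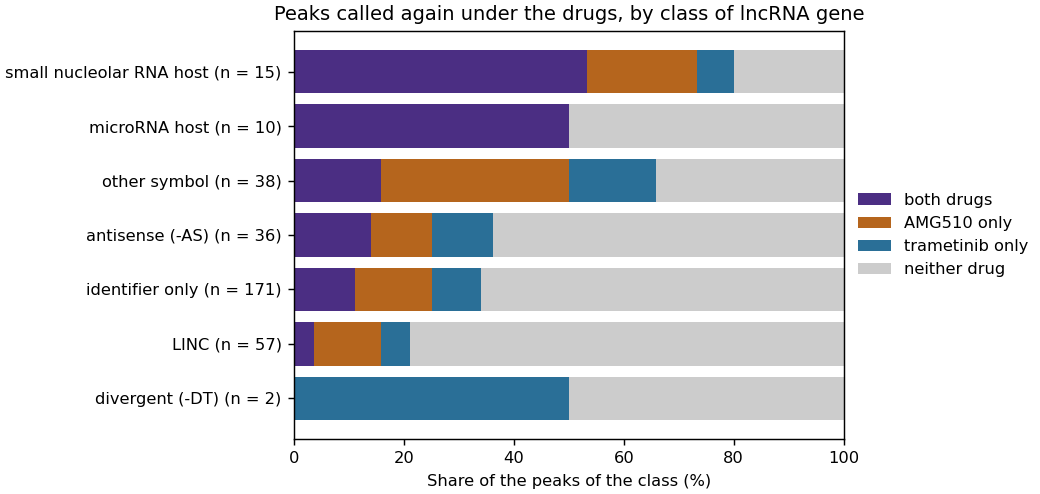
Share of the DMSO c-MYC peaks at lncRNA-only promoters (x axis, %) that had a peak in both drug lists, in AMG510 only, in trametinib only or in neither, by class of the nearest lncRNA gene (y axis, with the number of peaks). Small nucleolar RNA hosts have the largest segment for both drugs (8 of 15) and LINC genes the largest for neither among classes of more than 2 peaks (45 of 57).

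A lncRNA promoter can also be that of another non-coding gene. The TSS of a small RNA gene lay within 1 kb at 29 peaks and that of a pseudogene at 37. Peaks with a small RNA TSS were called in AMG510 at 18 of 29 (62.1%, 44 to 77.3) and in trametinib at 14 (48.3%, 31.4 to 65.6). These peaks include small nucleolar RNA hosts described above and the U1 neighbours described below, so they are not a separate set. Their median fold enrichment was 5.40, and protein-coding promoter peaks at the same deciles had 42.3%, below the AMG510 interval, and 36.4%, within the trametinib interval. Without either kind, 263 peaks were left, with 64 called in AMG510 (24.3%, 19.5 to 29.9) and 51 in trametinib (19.4%, 15.1 to 24.6). In this subset the differences from protein-coding promoters were −8.82 points (−13.8 to −3.13) and −8.35 points (−12.9 to −2.99), and both intervals excluded 0. The protein-coding group was neither filtered in the same way nor matched for strength here. Weighted to the deciles of the subset, protein-coding promoter peaks had 29.1% and 24.0%, within the intervals of the subset's shares.

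Among the small RNA neighbours, 7 peaks on chromosome 1 lay within 1 kb of genes of U1 small nuclear RNA or its variants, the RNA of the spliceosome that recognizes the 5′ splice site. This group and the next were picked out after their values were seen. The strongest, where ENSG00000276216 starts beside RNVU1-14 (chr1:145281019-145281684), had 29 tags in DMSO, against 24 (AMG510) and 35 (trametinib). At RNVU1-19 the values were 23, 16 and 16, at RNVU1-6 16, 28 and 13, and at RNU1-1 12, 16 and 16. These 4 had a peak in every c-MYC list. Over all 7, AMG510 peaks overlapped 5 and trametinib peaks 5 (interval 35.9% to 91.8% for each). Protein-coding promoter peaks at the same deciles had 50.3% and 44.3%, within that interval. LINC01138 beside RNVU1-21 had a peak in DMSO and AMG510 (14 and 10 tags), LINC00869 beside RNVU1-30 in DMSO, in trametinib and with IgG (18, 15 and 11), and the peak beside RNVU1-3 in DMSO only (16). Another place of at least 95% identity was found for the peaks at LINC00869 and RNU1-1 and for none of the other 5.

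A second group of copies comprised 8 peaks at pseudogenes of the FAM86 family, relatives of the methyltransferase gene EEF2KMT. Their median fold enrichment was 7.53, and 5 of the 8 held an E-box. AMG510 peaks overlapped 5 of them and trametinib peaks 3, with only FAM86B3P called in both (28 tags in DMSO, 17 in AMG510, 14 in trametinib). Protein-coding promoter peaks at the same deciles had 57.2% and 51.2%, within the intervals of these shares (30.6% to 86.3% and 13.7% to 69.4%). FAM86EP had peaks of 28 and 15 tags in DMSO, both overlapped by the same AMG510 peak of 12 tags, whose summit lay 425 bp from the first and 37 bp from the other. FAM86C2P had 23 tags in DMSO and 18 in AMG510, and the peak beside FAM86HP 28 and 22. The peak of ENSG00000291186 beside FAM86C1P had 27 tags in DMSO and 13 in trametinib, and FAM86JP had 23 and 19. Called values under a drug were thus below DMSO at each of these sites, with counting intervals that overlap.

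Peaks whose sequence recurs elsewhere were called more often with AMG510 and IgG, while their trametinib interval overlapped that of the other peaks. Another place of at least 95% identity was found for 32 of the 329 peaks. AMG510 peaks overlapped 19 of these (59.4%, 42.3 to 74.5), trametinib peaks 11 (34.4%, 20.4 to 51.7) and IgG peaks 3 (9.38%, 3.24 to 24.2). Among the 297 others the shares were 25.9% (21.3 to 31.2), 21.5% (17.2 to 26.6) and 0.337% (0.0595 to 1.88, 1 peak). The recurring peaks were also stronger, with a median fold enrichment of 5.47 against 4.62, and protein-coding promoter peaks at their deciles had 41.3% for AMG510 and 35.8% for trametinib. The 4 members with an IgG peak were FAM230C, LINC00869, ENSG00000237531 and ENSG00000290816. ENSG00000237531 had 21 tags in DMSO, 34 and 32 in AMG510 and trametinib and 17 with IgG, and ENSG00000290816 had 12 in DMSO and 8 in IgG with no drug call. IgG peaks were more frequent than at protein-coding promoters (0.260%) by 0.956 points (0.189 to 2.83), and the difference from peaks at neither promoter (3.803%) was −2.59 points (−3.54 to −0.65).

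Some strong members were called under 1 drug or none. EMSLR, a lncRNA named for its effect on the mRNA of E2F1, had 41 tags in DMSO (29.4 to 55.6) and 15 in trametinib (8.39 to 24.7), apart also after scaling, with no AMG510 peak. DPY19L2P2 had 20 and 16 tags in the same libraries. On the AMG510 side, ENSG00000273784 had 19 tags in DMSO and 12 in AMG510. The strongest with neither drug were LINC02595 (24 tags, fold enrichment 7.91), ENSG00000289923 (18 tags, 7.38), ENSG00000290832 (17 tags, 6.99), ENSG00000267882 (23 tags, 6.90) and ENSG00000290548 (16 tags, 6.60). None of these 5 held an E-box, but 33 of all 203 members called in neither drug did. A lack of overlap was not always a lack of signal nearby: 30 members without an AMG510 overlap had an AMG510 peak within 1 kb, and 18 without a trametinib overlap a trametinib peak.

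Where a site was called in both libraries, it was mostly weaker under the drug. Fold enrichment was lower in AMG510 than in DMSO at 69 of the 96 shared sites, with a median log2 ratio of −0.15 (quartiles −0.44 to 0.02). Tags were fewer at 81, with a median log2 ratio of −0.40, where an unchanged, evenly spread signal would give −0.16. In trametinib fold enrichment was lower at 51 of 75, with a median of −0.23 (−0.44 to 0.11). Tags were fewer there at 55 (median −0.35, with −0.07 for an unchanged, evenly spread signal). Scaled for extension and depth, tags were fewer at 73 of 96 sites in AMG510 (median −0.25) and at 54 of 75 in trametinib (median −0.28). Protein-coding promoters had medians of −0.22 for fold enrichment under each drug, so the lncRNA-only promoters did not stand apart. Members were selected by their call in DMSO, which favours high DMSO values. Summits of shared sites lay a median of 81 bp apart in AMG510 and 61 bp in trametinib.

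The same rule applied to the other lists found 253 peaks in AMG510 (2.44% of its list, 2.16 to 2.75), 175 in trametinib (3.22%, 2.79 to 3.73) and 58 in IgG (1.955%, 1.52 to 2.52), where the windows of the rule cover 1.498% of the genome. On the log2 scale the number of lncRNA-only promoter peaks differed from DMSO by −0.38 (−0.62 to −0.14) in AMG510 and by −0.91 (−1.17 to −0.65) in trametinib. Whole lists, of 9552 peaks in DMSO, 10378 in AMG510 and 5431 in trametinib, differed from DMSO by 0.12 and −0.81 on the same scale. The trametinib interval thus held the value of its whole list and the AMG510 interval did not. Protein-coding promoters also had fewer peaks with each drug, 2808 (AMG510) and 2128 (trametinib) against 4621 (DMSO). Among promoter peaks of both kinds, the lncRNA-only share was 8.27% (AMG510), 7.60% (trametinib) and 6.65% (DMSO), given here without intervals. Lower peak numbers were therefore not particular to lncRNA-only promoters. Most lncRNA-only promoter peaks of the drug lists were not DMSO peaks: 159 of 253 in AMG510 and 96 of 175 in trametinib overlapped none. The E-box share differed between the kinds. Among AMG510 peaks it lay at 20 of 94 with a DMSO overlap (21.3%) and at 7 of 159 without (4.403%). Among trametinib peaks it lay at 22 of 79 (27.8%) and 4 of 96 (4.17%). The shares at peaks without a DMSO overlap were close to the 4.26% of windows 1 kb beside the DMSO summits. No such windows were searched beside the drug summits. Peaks without a DMSO overlap were also weaker, with a median fold enrichment of 4.33 against 4.97 in AMG510 and 4.41 against 5.15 in trametinib. The E-box shares were not compared at equal strength.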

How the data were processed

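MIA PaCa-2 ChIP-seq peak lists of 4 libraries, grouped by sample title, were used (1 library per group). According to the methods and the submitters' processing notes, reads were trimmed (Trimmomatic 0.39), aligned to GRCh38 (BWA 0.7.17, mapping quality of at least 20), freed of duplicates (Picard) and used for peak calling in each library (MACS2 2.2.7.1), and peaks on the ENCODE exclusion list were removed. A fragment may enter with its mates as separate tags, which makes counting intervals too narrow. The deposited score is the −log10 q-value times 10, the deposited fold enrichment is a ratio of summit pileup to background, and the other deposited columns are, for the summit, the −log10 of the p-value and that of the q-value. All were made by the authors and used only to describe peaks and to recover pileups.

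Whole-number pileups and depth were solved from the fold enrichment and p-value, for 100% of peaks. Scaled tags were divided by the ratio of depth times extension length to that of DMSO, a setting chosen after the data were seen. Promoters came from GENCODE 44, with protein-coding transcripts of protein-coding genes as the excluding set. Identical places were searched with blast 2.17.0 (301 bp, at least 95% identity over at least 90% of the length). The main programs were python 3.11.15, pandas 2.3.3 and scipy 1.17.1, and the recovery and overlap steps were tested on simulated data. Shares carry 95% Wilson intervals, differences Newcombe intervals and tags exact Poisson intervals. Decile-weighted differences carry a normal-approximation interval. No test was run across libraries. Peaks sharing a gene or sequence are not replicates. Named peaks were the 10 strongest, the 10 strongest called in both drugs, the 3 strongest in each drug alone, the 5 strongest in neither, those with IgG peaks, the 8 strongest with an E-box and all at genes of 3 lists. The peaks, the lists and the gene classes were chosen with earlier results of these data known. Alternatives are given in the closing section.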

Additional observations from a re-analysis of the deposited data

How the results depend on the processing

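Under other settings 11 results were recomputed. Of 100 values, 76 stayed within the interval of the main value (for the number of members, within 1.5 times), 24 moved and 0 values whose interval excluded 0 changed sign. With DMSO peaks of fold enrichment above 5 only, 136 members were left, with 47.8% called in AMG510, 40.4% in trametinib, 41.2% in neither and an E-box in 32.4%. With a score above 60 in every list, 108 were left, with 24.1% called in AMG510 and an E-box in 36.1%, and the differences from protein-coding promoters became 2.99 points (−4.37 to 12.04) for AMG510 and 5.30 points (−2.42 to 14.5) for trametinib, both with the opposite sign, and 9.48 points (0.776 to 19.1) for the E-box. With an overlap of at least 50% of the DMSO peak, 22.2%, 17.6% and 70.2% were called in AMG510, trametinib and neither, and the AMG510 difference was 0.397 points (−3.93 to 5.33). With any drug peak within 1 kb the shares were 38.3%, 28.3% and 52.3%. Members over 1 kb from other TSS gave 24.3% in AMG510. The E-box share was 15.5% within 50 bp, 27.1% within 200 bp and 37.4% with CACGCG included. Members with no other place of 95% identity, a setting added after the data were seen, gave 0.337% in IgG. Against protein-coding promoters, the AMG510 interval excluded 0 with windows of 2 kb (−6.19 points, −10.6 to −1.32) and among members over 1 kb from other TSS. The trametinib interval excluded 0 under both of these (2 kb: −6.47 points, −10.5 to −1.90), with drug peaks within 1 kb (−6.42 points, −11.2 to −1.15) and without the members overlapped by IgG (−5.58 points, −9.95 to −0.584), also added later. The E-box interval also excluded 0 with windows of 500 bp (6.12 points, 1.90 to 10.9), canonical lncRNA transcripts (4.66, 0.0923 to 9.97), fold enrichment above 5 (8.03, 0.512 to 16.5), an E-box window of 50 bp (5.05, 1.42 to 9.44), decile weights and without members overlapped by IgG (4.31, 0.0630 to 9.19). Scaling tags for extension and depth, added later, moved the median log2 tag ratio to −0.25 for AMG510 and −0.28 for trametinib.

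No paired analysis was possible because there is 1 library in each group, so no replicate could be left out either. Most sites rest on 12 to 19 tags, so a call can be lost or gained by a few tags.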

Other observations

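Chromosome 7 held 32 of the 329 peaks (9.73%), against 5.24% of the peaks at protein-coding promoters and 4.47% of lncRNA genes in the annotation. It was picked out after the values were seen. Of the 42 peaks in the strongest decile 9 were on chromosome 7, where 44 of 749 protein-coding promoter peaks of that decile were, and of the 13 strongest peaks 6 were (ENSG00000286874, SNHG15, SNHG26, LINC03009, ELFN1-AS1 and EMSLR). The cut at 13 ends on a peak of this chromosome, since ELFN1-AS1 and EMSLR rank 12 and 13, beyond the 10 strongest. Chromosome 1 held 46 peaks (13.98%), 7 of them beside U1 genes. The number of copies of each chromosome in these cells was not used here.

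The peaks nearest to the rule's limit for protein-coding promoters did not look alike in strength. Just inside it were CAMTA1-DT (1036 bp from the protein-coding TSS, fold enrichment 5.15), ENSG00000227598 (1050 bp, 3.30) and NRSN2-AS1 (1097 bp, 5.46), and just outside it TSC22D1-AS1 (997 bp, 4.05), ZNF516-DT (984 bp, 6.24) and ENSG00000289521 (977 bp, 3.47). At the limit for lncRNA promoters, ENSG00000273980 (991 bp, 3.18) was inside and ENSG00000278831 (1011 bp, 4.48) outside.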
